A study of Mus musculus with 4 samples.

Results

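The 10 Notch pathway genes described here were the receptors Notch1, Notch2, Notch3 and Notch4, the ligands Jag1, Jag2 and Dll1, and the target genes Hes1, Hey1 and Heyl. They were taken by gene symbol from the count table, in which they made up 10 of 55487 genes. RNA-seq was performed on polyadenylated RNA from wild-type mouse embryonic fibroblasts (MEFs), primary cells grown out of C57BL/6J embryos at day E13.5. Cells were cultured for 24 h with or without 100 ng/mL of pigment epithelium-derived factor (PEDF), a secreted glycoprotein of the serpin family, given as a recombinant protein that had been purified from mammalian cells. There were 2 control and 2 PEDF libraries, 1 of each from experiment 1 and 1 of each from experiment 2. MEFs of the 2 experiments came from different embryos, so a control and a PEDF library of the same experiment were treated as a pair. Whether the cells of 1 experiment came from several embryos is not given in the sources used here, and the passage is given as 2 in the labels and as 3 in the study's text. The question was which Notch pathway transcripts MEFs held and whether their levels differed with PEDF.

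Notch receptors are large transmembrane proteins that are activated by ligands of the Jagged and Delta families on neighbouring cells. Ligand binding exposes the receptor to cleavage by an ADAM protease and then by γ-secretase, and the released intracellular domain enters the nucleus and joins the DNA-binding protein RBPJ to switch on target genes such as those of the Hes and Hey families. In mesenchymal cells, including fibroblasts and the cells around blood vessels, Notch signalling takes part in choices between proliferation and differentiation.

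Library totals ran from 14722848 to 18144640 counts, and all 10 members had at least 10 counts over the 4 libraries and so entered the tests on 19384 genes. All 10 fibroblast markers examined, among them Col1a1, Col3a1, Pdgfra and Vim, were detected in every library. Their summed level, in TPM (transcript counts scaled for gene length and to the same library total), ran from 16630 to 19950 in control and from 14760 to 16770 in PEDF-treated MEFs, and it was lower with PEDF in both experiments. Markers of endothelial cells, which use the same pathway, summed to 22.7 to 23.1 TPM in control and 23.0 to 23.8 TPM in PEDF-treated MEFs, with 7 of 9 tested and Tie1 at 0 counts in every library. Mural cell markers summed to 4878 to 5197 TPM and 4840 to 5178 TPM, respectively, and none of the 9 was at 0 in all libraries. The skeletal muscle (286.7 to 391.9 TPM), epithelial (72.5 to 90.8 TPM), macrophage (102.3 to 182.2 TPM) and neural (240.9 to 289.5 TPM) lists were detected as well. The part of these markers in the values below was not tested. In bulk RNA, fewer cells of a type and less RNA per cell cannot be told apart.

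The sequences shown are the stretches upstream of the start sites of Notch1, Notch2 and Jag1, because these 3 members were the ones called lower with PEDF when the experiments were paired. They come from RefSeq on GRCm38.p6, are written 5′ to 3′ on the strand of the gene, and end before the first base that the GENCODE annotation gives to an exon of the gene. Capitals mark each GC box (GGGCGG, read on both strands), a short motif bound by Sp family factors. The Notch1 stretch lies at chr2:26503825-26504072 on the minus strand, inside the span of the gene in the deposited table. The Notch2 stretch lies at chr3:98013288-98013526 on the plus strand, and the Jag1 stretch lies at chr2:137116645-137116770 on the minus strand.
Notch1: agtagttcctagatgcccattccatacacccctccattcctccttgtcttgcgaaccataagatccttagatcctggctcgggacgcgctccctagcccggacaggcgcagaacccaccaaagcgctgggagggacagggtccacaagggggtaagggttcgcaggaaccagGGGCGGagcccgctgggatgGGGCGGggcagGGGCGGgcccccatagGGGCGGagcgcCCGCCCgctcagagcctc
Notch2: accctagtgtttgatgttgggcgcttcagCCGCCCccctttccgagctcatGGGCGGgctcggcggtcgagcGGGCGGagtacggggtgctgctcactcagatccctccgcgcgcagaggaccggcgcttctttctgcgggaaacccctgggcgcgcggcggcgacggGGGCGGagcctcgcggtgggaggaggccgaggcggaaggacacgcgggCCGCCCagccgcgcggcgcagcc
Jag1: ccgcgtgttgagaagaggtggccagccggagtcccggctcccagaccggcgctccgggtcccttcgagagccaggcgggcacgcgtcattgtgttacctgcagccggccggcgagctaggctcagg
The Notch1 and Notch2 stretches each hold 5 GC boxes and the Jag1 stretch holds none, so the 3 do not share the motif. Windows of 250 bases before the start were at hand for 7 members, as 8 windows because Dll1 has a pair. GC boxes were also present in those of Notch3 (4) and Jag2 (5) but not in those of Notch4 or Dll1. These counts are over the full windows, and that of Jag2 begins inside an annotated exon of the gene. Among all 32851 such windows, 32.7% held a GC box. The core of the RBPJ site, GTGGGAA on either strand, was in none of the 8 windows and in 5.42% of all windows. No window was at hand for the target genes Hes1, Hey1 and Heyl, so the site was not examined there.

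On the TPM scale, which allows levels of different genes to be compared, Hes1 was the most abundant member with a mean of 85.5 TPM over the 4 libraries. It was followed by Notch2 (38.1 TPM), Jag1 (36.2 TPM), Notch3 (31.2 TPM) and Notch1 (18.6 TPM), and then after a wide gap by Hey1 (4.11 TPM), Heyl (3.46 TPM), Dll1 (1.78 TPM), Jag2 (1.47 TPM) and Notch4 (0.714 TPM). MEFs thus held 3 receptors, 1 ligand and 1 target gene at over 10 TPM, and the other 5 members at under 5 TPM in every library. Hes1 lay above 91.1% of all tested genes in mean TPM and Notch4 above 14.5%. Neighbours in this order were separated in every library, except that Notch2 and Jag1, Hey1 and Heyl, and Dll1 and Jag2 changed places between libraries. Jag1 exceeded Notch3 in each library although their ranges overlapped. This order depends on the gene length used, which was the summed exon length. Notch1 had more counts over the 4 libraries than Notch3 (6174 against 5903) but a lower TPM.

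**Figure D1:**
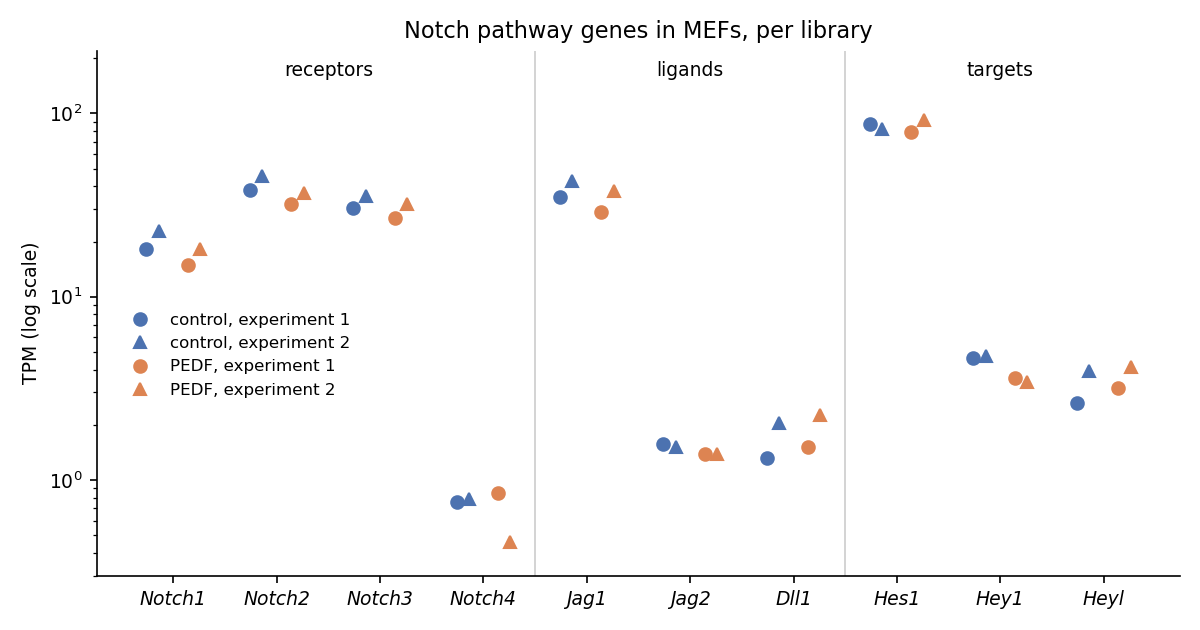
Level of the 10 Notch pathway genes in each of the 4 libraries, in TPM on a log axis, with control in blue, PEDF in orange, experiment 1 as circles and experiment 2 as triangles. Hes1, Notch2, Jag1, Notch3 and Notch1 lie between 14.97 and 92.2 TPM, and the other 5 genes lie under 5 TPM.

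Within the receptors, Notch2 took 41.9% to 43.6% of the summed receptor TPM, Notch3 34.0% to 36.8%, Notch1 at most 21.8% and Notch4 0.527% to 1.14%. The summed receptor level was 87.5 and 104.5 TPM in control and 74.8 and 87.5 TPM in PEDF-treated MEFs of experiments 1 and 2. Jag1 made up 90.9% to 92.4% of the summed TPM of the 3 ligands, and Hes1 made up 90.4% to 92.5% of that of the 3 target genes. Each role was therefore dominated by the same genes in all 4 libraries, and these shares moved by only a few percentage points between libraries.

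For the comparison of PEDF with control, levels were expressed as CPM (counts scaled to the same library total, without regard to gene length) with TMM-scaled library sizes. No member passed the test when the libraries were compared without pairing (edgeR quasi-likelihood test, Benjamini-Hochberg adjustment over all 19384 genes, threshold 0.05), a test in which 0.00516% of all genes passed. DESeq2 and limma without pairing called none of the 10 members, and only 3 and 0 of all genes. At an unadjusted p under 0.05 the same test held 2 of 10 members, Notch1 and Notch2, against 6.88% of all genes. When the experiment was added as a block, so that each PEDF library was compared with the control of its own experiment, 3 of 10 members passed, all lower with PEDF (Notch1, Notch2 and Jag1), against 3.75% of all genes in either direction and 2.07% in the lower direction. In other edgeR fits with the block, 1 member passed with gene length removed (2.22% of all genes) and 1 with length and GC removed (2.18%). DESeq2 with the block gave 9 of the 10 members no adjusted p, so these could not be called. Notch2, which had one, did not pass, where 6.55% of 1817 genes with an adjusted p did. Notch1, Notch2, Jag2 and Hey1 had both PEDF libraries below both control libraries, 4 of 10 members against 18.4% of all genes. No member had both above, against 3658 of all 19384 genes. Within experiments, 6 of 10 members were lower with PEDF in both (28.8% of all genes), 2 of 10 were higher in both (30.1% of all genes), and Notch4 and Hes1 differed in direction between the experiments. The median log2 fold change over the 10 members was -0.17 in the fit without pairing, beside 0.00 over all genes tested.

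**Figure D2:**
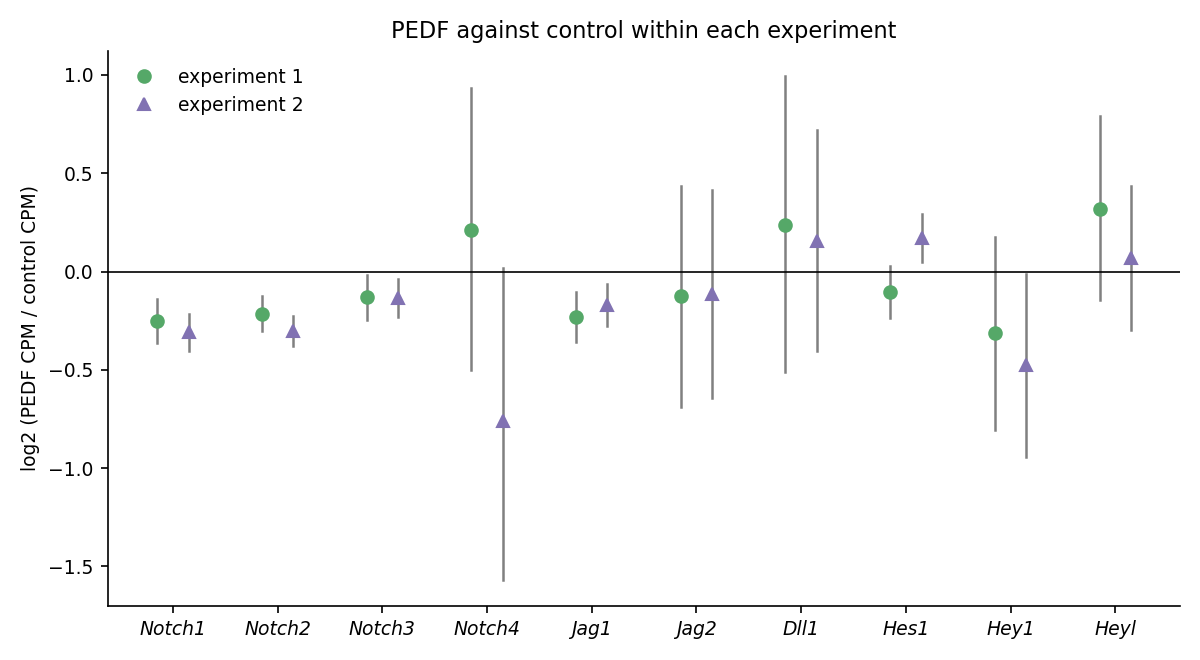
Log2 ratio of PEDF to control CPM within experiment 1 (circles) and experiment 2 (triangles) for each member, with lines for the 95% interval of counting error. Notch1, Notch2, Notch3 and Jag1 lie below 0 with their intervals in both experiments, and the intervals of Notch4, Jag2, Dll1 and Heyl include 0 in both.

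Notch1 (ENSMUSG00000026923, chromosome 2, 26457903 to 26516663, minus strand, GRCm38) encodes the receptor best known for its part in T cell and vascular development. Its level was 92.5 and 111.8 CPM in control and 77.7 and 90.2 CPM in PEDF-treated MEFs of experiments 1 and 2. Both PEDF libraries were below both control libraries, although by a narrow margin between control of experiment 1 and PEDF of experiment 2, and experiment 2 was the higher of the experiments in each group. The group means were 102.1 ± 13.6 and 84.0 ± 8.82 CPM (SD, n = 2 each), and PEDF was 84.0% of control in experiment 1 and 80.7% in experiment 2. The log2 fold change was -0.28 with an SE of 0.10 and an adjusted p of 0.696 without pairing (edgeR), and -0.28 with an SE of 0.06 and an adjusted p of 0.000145 with the block. Notch1 thus fell with PEDF in the blocked fit, a call that did not hold in the blocked fit with gene length removed (-0.18, edgeR, adjusted p = 0.0554) or with length and GC removed (-0.15, adjusted p = 0.159). Without control of experiment 2 the unpaired value was -0.14. The difference between experiments in either group (log2 ratios of 0.27 and 0.21) was about as large as the difference between treatments. Notch1 overlaps the transcripts 0610009E02Rik (1060 counts over the 4 libraries) and Gm13568 (131 counts) on the opposite strand, and the strand setting of the counting is not given in the sources used here.

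Notch2 (ENSMUSG00000027878, chromosome 3, 98013527 to 98150361, plus strand), the most abundant receptor here, is known for its part in marginal zone B cells, bile duct and skeleton. Its level was 146.1 and 169.3 CPM in control and 125.8 and 137.3 CPM in PEDF-treated MEFs of experiments 1 and 2. The groups did not overlap, and PEDF was lower than its own control in each experiment, at 86.1% and 81.1% of control. The means were 157.7 ± 16.4 and 131.6 ± 8.09 CPM (SD, n = 2 each). The log2 fold change was -0.26 with an SE of 0.08 and an adjusted p of 0.696 without pairing (edgeR), and -0.26 with an SE of 0.05 and an adjusted p of 7.07e-05 with the block. With length and GC removed the blocked value was -0.17 (edgeR, adjusted p = 0.0379). Without control of experiment 2 the unpaired value was -0.15. Notch2 was the single member with an adjusted p in DESeq2 with the block, 0.0616, where 6.55% of 1817 genes with an adjusted p passed and the other 9 members received none.

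Notch3 (ENSMUSG00000038146, chromosome 17, 32120820 to 32166852, minus strand) encodes a receptor characteristic of vascular smooth muscle cells and pericytes. It was at 87.1 and 99.3 CPM in control and at 79.5 and 90.4 CPM in PEDF-treated MEFs of experiments 1 and 2. The ranges overlapped, since PEDF of experiment 2 was above control of experiment 1, but PEDF was below its own control both times, at 91.3% and 91.1%. The log2 fold change of -0.13 (SE 0.09) did not pass (edgeR, adjusted p = 0.781). The interval without pairing ran from -0.32 to 0.05. The antisense transcript Gm17276 covers 21024 bases of the gene and had 538 counts, against 5903 for Notch3.

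Notch4 (ENSMUSG00000015468, chromosome 17, 34564268 to 34588503, plus strand), a receptor best known from endothelial cells, had 32 and 39 counts in control and 39 and 23 in PEDF-treated MEFs. The control libraries lay between the PEDF libraries, at 2.17 and 2.19 CPM against 2.51 and 1.29 CPM. The interval of the log2 fold change, -1.001 to 0.578, spans changes in either direction (edgeR, adjusted p = 0.929), and no difference was detected. The log2 ratio of PEDF to its own control was 0.21 in experiment 1 and -0.76 in experiment 2.

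Jag1 (ENSMUSG00000027276, chromosome 2, 137081456 to 137116644, minus strand), a transmembrane ligand whose loss of function causes Alagille syndrome, was the most abundant of the 3 ligands. It was at 72.3 and 86.5 CPM in control and 61.6 and 76.8 CPM in PEDF-treated MEFs of experiments 1 and 2. The ranges overlapped between groups because both libraries of experiment 2 were above both of experiment 1, and within each experiment PEDF was the lower, at 85.2% and 88.9% of control. The log2 fold change was -0.20 with an SE of 0.11 and an adjusted p of 0.758 without pairing (edgeR), and -0.20 with an SE of 0.06 and an adjusted p of 0.0405 with the block. Jag1 was called only with the pairing. In the blocked fits with length or with length and GC removed it was at -0.18 and did not pass. DESeq2 with the block gave it no adjusted p. Without PEDF of experiment 1 its unpaired value was -0.05. Its difference between experiments was 0.26 in control and 0.32 in PEDF on the log2 scale.

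Jag2 (ENSMUSG00000002799, chromosome 12, 112907819 to 112929776, minus strand), the second Jagged ligand, had 57 and 65 counts in control and 55 and 60 in PEDF-treated MEFs, or 3.86 and 3.64 CPM against 3.54 and 3.37 CPM. Both PEDF libraries were below both controls, yet by less than the counting error, since the intervals within experiments ran from -0.69 to 0.43 and from -0.64 to 0.42 on the log2 scale. The log2 fold change was -0.12 with an SE of 0.25 (edgeR, adjusted p = 0.942).

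Dll1 (ENSMUSG00000014773, chromosome 17, 15367354 to 15376872, minus strand), a Delta family ligand used in somite segmentation, had 29 and 53 counts in control and 36 and 59 in PEDF-treated MEFs. In CPM these were 1.97 and 2.97 against 2.32 and 3.31, so that experiment 2 was higher in both groups and the groups overlapped. PEDF was 118% and 111% of its own control, and the log2 fold change of 0.18 (SE 0.32) did not pass (edgeR, adjusted p = 0.928). Dll4, the ligand of endothelial tip cells, had 0 counts in all 4 libraries, which allows a level of up to 0.168 to 0.203 CPM depending on the library (3 counts, counting error only).

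Hes1 (ENSMUSG00000022528, chromosome 16, 30064384 to 30067796, plus strand), a transcriptional repressor that is a direct target of Notch in many cells and answers to other signals too, was at 63.6 and 58.0 CPM in control and at 59.1 and 65.3 CPM in PEDF-treated MEFs. The groups overlapped and the experiments differed in direction, with PEDF at 92.9% of control in experiment 1 and 112% in experiment 2. The group means were 60.8 ± 3.92 and 62.2 ± 4.39 CPM (SD, n = 2 each). The log2 fold change was 0.03 with an SE of 0.09, and its interval ran from -0.15 to 0.22 (edgeR, adjusted p = 0.949). With the block the interval was -0.09 to 0.17, or 93.7% to 112% of control. Hes1 thus did not pass in either fit.

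Hey1 (ENSMUSG00000040289, chromosome 3, 8663359 to 8667256, minus strand), a repressor related to Hes1 with a part in heart and vessel development, had 79 and 96 counts in control and 67 and 69 in PEDF-treated MEFs. At 5.35 and 5.38 CPM the control libraries were close together and both PEDF libraries, at 4.31 and 3.87 CPM, were lower. The log2 ratio of PEDF to its own control was -0.31 and -0.47. Hey1 had the largest fitted difference among the 10 members, a log2 fold change of -0.39, but its SE of 0.22 was also large and it did not pass (edgeR, adjusted p = 0.756 without pairing and 0.396 with the block).

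Heyl (ENSMUSG00000032744, chromosome 4, 123233556 to 123249875, plus strand), another Hey family gene that is prominent in mural cells, had 70 and 124 counts in control and 92 and 130 in PEDF-treated MEFs. The values of 4.74 and 6.95 CPM in control and 5.92 and 7.30 CPM with PEDF overlapped, and experiment 2 was higher in both groups. PEDF was 125% and 105% of its own control, and the log2 fold change of 0.17 (SE 0.22) did not pass (edgeR, adjusted p = 0.904). The 3 target genes therefore showed no common direction, with Hey1 lower in both experiments, Heyl higher in both and Hes1 mixed.

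The change with PEDF varied with gene length in these libraries, and Notch1 and Notch2 are the longest of the members. The summed exon length was 14232 bp for Notch1, 10782 bp for Notch2 and 5827 bp for Jag1, against 2037 bp for Hes1 and a median of 3614 bp over all tested genes. Among the 2710 tested genes over 8000 bp, the median log2 fold change with the block was -0.08, 50.5% were lower with PEDF in both experiments and 8.15% were called lower, compared with 0.02, 25.2% and 1.08% for the 16653 genes of 8000 bp or less. All 4 receptors were over 8000 bp, and with the block Notch1 and Notch2 were called lower and Notch3 and Notch4 were not. All 6 ligands and targets were shorter, and of these only Jag1 was called. At the length of Notch1, the trend over all genes was -0.09 in experiment 1 and -0.11 in experiment 2 (log2 PEDF over control). It was -0.07 and -0.08 at the length of Notch2 and -0.02 in both experiments at that of Jag1. At that of Hes1 it put PEDF above control, by 0.05 and 0.07.

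**Figure D3:**
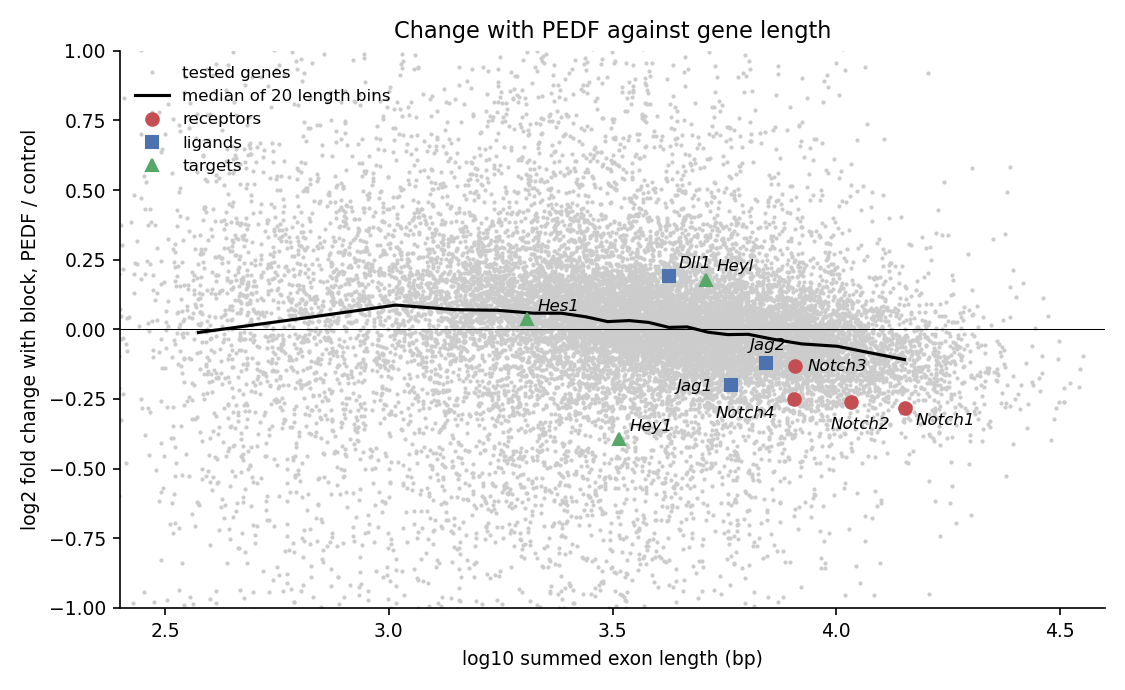
Log2 fold change of PEDF over control with the experiment as a block, against the log10 summed exon length in bp, for all tested genes with a length (grey, drawn from -1 to 1), the median of length bins (line) and the 10 members (red circles receptors, blue squares ligands, green triangles targets). The line falls below 0 at the right, and Notch1 at -0.28 and Notch2 at -0.26 lie below it.

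With the length trend removed in the blocked fit, the log2 fold change of Notch1 was -0.18 (edgeR, adjusted p = 0.0554), that of Notch2 -0.19 (adjusted p = 0.0127) and that of Jag1 -0.18, which did not pass. Notch2 alone of the 10 members then passed, against 2.22% of all genes. With GC content removed as well, Notch2 was at -0.17 (edgeR, adjusted p = 0.0379), Notch1 at -0.15 (adjusted p = 0.159) and Jag1 at -0.18 (adjusted p = 0.0925), and 2.18% of all genes passed. The median of the 10 members moved from -0.17 with the block to -0.13 with length and to -0.10 with length and GC removed. All 3 genes kept a negative sign in these fits.

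**Figure D4:**
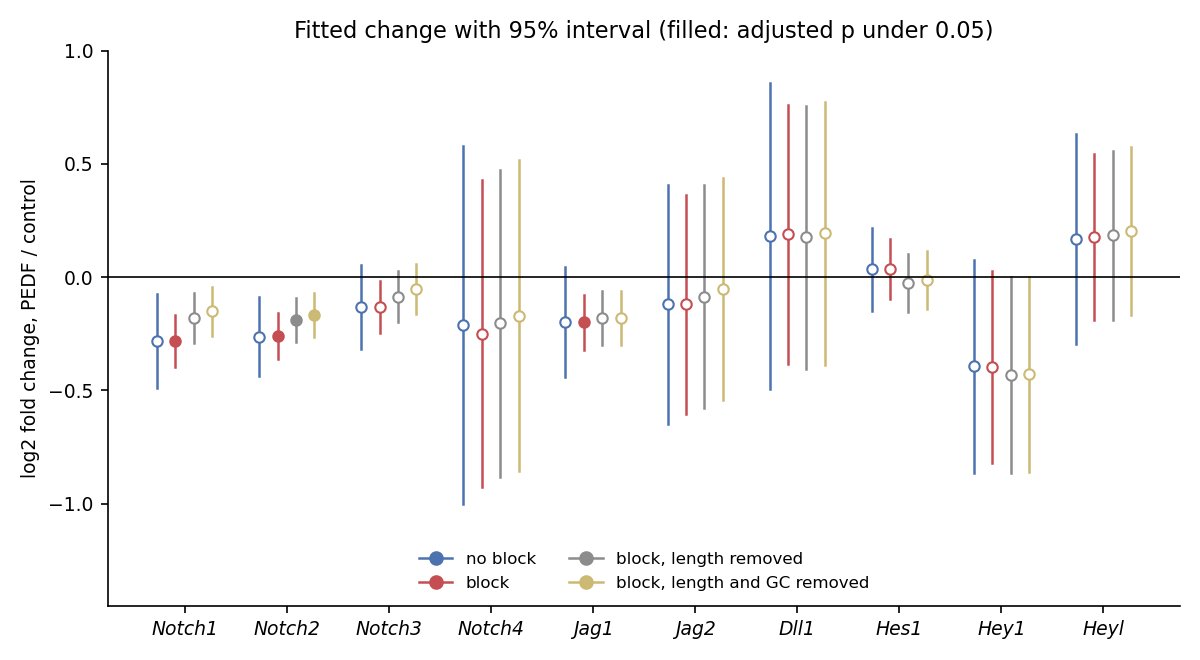
Fitted log2 fold change of PEDF over control with its 95% interval for each member in 4 edgeR fits (no block, block, block with length removed, block with length and GC removed), with filled points for an adjusted p under 0.05. Filled points are seen for Notch1, Notch2 and Jag1 with the block, and for Notch2 alone in the fits with length or length and GC removed.

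The other components of the pathway were examined as a list of 50 genes, of which 48 were tested, with Dll4 and Hes5 below 10 counts in total. None passed without pairing, and 3 of 48 had an unadjusted p under 0.05 in that test (Psenen, Hdac1 and Spen), near the 6.88% of all genes. With the block these 3 passed, 2 higher and 1 lower with PEDF, beside the 3.75% of all genes given above. DESeq2 with the block gave 42 of the 48 no adjusted p, Psenen and Spen among them, so these could not be called. None of the others passed, with Hdac1 at an adjusted p of 0.297, where 6.55% of 1817 genes with an adjusted p did. Within experiments 13 of the 48 were lower in both (28.8% of all genes), 15 higher in both (30.1% of all genes) and 20 mixed, shares near those of all genes, and the median log2 fold change was 0.02 in the fit without pairing. Psenen, a subunit of γ-secretase, was at 74.4 and 74.1 TPM in control and 99.7 and 87.9 TPM in PEDF-treated MEFs, with both PEDF libraries above both controls. Its log2 fold change with the block was 0.36 (SE 0.08, edgeR, adjusted p = 0.00113), and it passed with length removed as well (0.28, adjusted p = 0.0271).

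In the nuclear group, Spen, a corepressor partner of RBPJ, was at 14.2 and 17.0 TPM in control and 12.9 and 13.6 TPM in PEDF-treated MEFs, and fell with the block by 0.22 on the log2 scale (SE 0.06, edgeR, adjusted p = 0.0216). Hdac1, a histone deacetylase, was at 115.8 and 118.2 TPM against 125.1 and 135.9 TPM, and rose by 0.18 (SE 0.05, adjusted p = 0.0173). PEDF libraries did not overlap controls for either gene. Spen has an exon length of 14089 bp, and with length removed neither Spen (edgeR, adjusted p = 0.444) nor Hdac1 (adjusted p = 0.0947) passed. The length trend removed was -0.09 and -0.11 on the log2 scale in experiments 1 and 2 for Spen. For Hdac1 it was 0.03 and 0.04. Ctbp1, a further corepressor, was at 152.6 to 163.8 TPM over the 4 libraries and Snw1, a coactivator of the Notch nuclear complex, at 37.5 to 42.6 TPM, and neither passed.

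Psenen aside, no gene of the other roles passed with the block. Of the cleavage group, Ncstn (120.6 to 147.7 TPM) and Adam10 (99.3 to 106.6 TPM) had higher mean levels than Psenen, and 5 of the 9 genes were higher with PEDF in both experiments and 1 lower in both, where 30.1% and 28.8% of all genes were. Among ligands outside the members, Dlk1, a non-canonical ligand expressed by precursor cells, reached 320.1 and 330.6 TPM in control and 335.0 and 350.6 TPM with PEDF, above every member, and Dner and Dlk2 were at 7.496 to 12.0 TPM. Among the 4 edgeR fits shown for the members, Dlk1 passed only with length and GC both removed (log2 fold change 0.13, edgeR, adjusted p = 0.0377). Of 13 sorting and ubiquitination genes, 5 were lower in both experiments and 2 higher (28.8% and 30.1% of all genes), and the most abundant were Dtx3 (95.3 to 111.2 TPM), Numbl (31.4 to 34.4 TPM) and Mib2 (26.2 to 31.1 TPM). Of 6 glycosylation and maturation genes, Furin, the protease that cuts receptor precursors, was at 55.8 to 66.5 TPM, Poglut1 at 37.0 to 44.7 TPM and Pofut1 at 20.9 to 24.6 TPM. Among the other targets Hes6 was at 48.1 to 51.1 TPM, while Hey2 (0.998 to 1.34 TPM) and Hes7 (0.738 to 1.26 TPM) were near the level of Notch4.

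**Figure D5:**
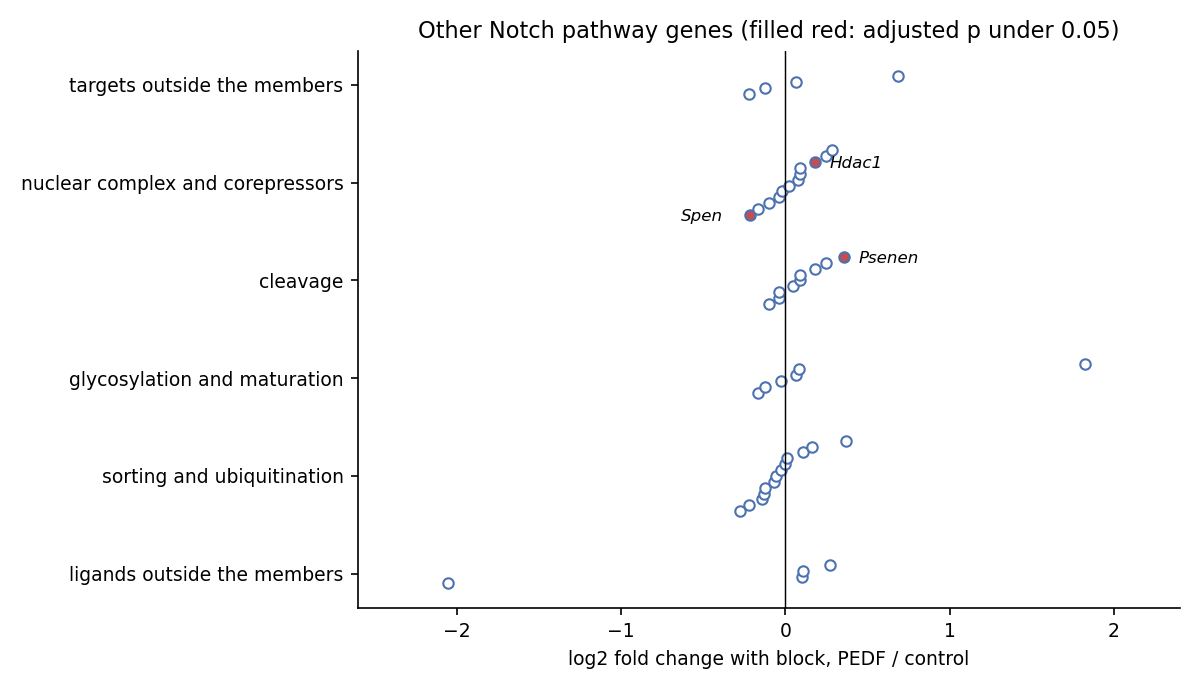
Log2 fold change of PEDF over control with the experiment as a block for the 48 tested genes of the wider Notch list, by role, with filled red points for an adjusted p under 0.05. Psenen (0.36) and Hdac1 (0.18) lie above 0 and Spen (-0.22) below it, and the points at the far left and right are Dll3 and Mfng, which had 17 and 25 counts in total.

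Beside the lower values of Notch1, Notch2 and Jag1, the summed fibroblast markers were lower with PEDF in both experiments, as given above. Most of that sum came from Col1a1 (8332 and 10590 TPM in control, 7226 and 8469 TPM with PEDF) and Fn1 (2062 and 2541 TPM, and 1625 and 1869 TPM), whereas Thy1 was at 162.7 and 190.4 TPM in control and 180.8 and 195.2 TPM with PEDF. With the block, in which 3.75% of all genes passed, 6 of these 10 markers did so, Col1a1, Col1a2, Pdgfrb, Fn1, Dcn and Lum, and Dcn and Lum were higher with PEDF than in the control of the same experiment while the sum was lower. No endothelial marker passed in either edgeR fit. Of the mural markers, Cspg4 (46.9 and 66.1 TPM in control, 35.9 and 48.4 TPM with PEDF) fell with the block and Des (76.9 and 72.4 TPM, and 84.1 and 82.9 TPM) rose. Acta1 of the skeletal muscle list (141.1 and 165.9 TPM in control, 155.0 and 190.4 TPM with PEDF) and Lyz2 of the macrophage list (129.5 and 57.8 TPM, and 130.4 and 100.9 TPM) also passed with the block, both higher with PEDF. The part of any of these in the members' values was not tested.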

How the data were processed

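RNA was sequenced from 2 control and 2 PEDF-treated MEF cultures. According to the study's methods and the submitters' processing notes, poly(A) RNA was made into directional paired-end libraries. Reads were checked with FastQC 0.11.7, trimmed with Trimmomatic 0.38, aligned to mm10 with HISAT2 2.1.0, converted with SAMtools 1.9 and counted per gene with featureCounts 1.6.3, from uniquely mapped reads. The authors deposited raw counts and TPM values for 55487 genes, and the strand setting, annotation and TPM conversion are not given in the sources used here. The deposited gene coordinates equal those of GENCODE M21 (GRCm38) for 54784 genes, and the lengths implied by counts and TPM equal the M21 summed exon length within 0.1% for 98.3% of genes with a count in control of experiment 1.

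Genes with at least 10 counts in total (19384) were tested with edgeR 4.0.16 in R 4.3.3 (TMM, robust quasi-likelihood, no covariate, Benjamini-Hochberg adjustment, threshold 0.05). TMM factors were 1.00, 0.983, 1.01 and 1.00. Intervals are 95% intervals, and those within an experiment are exact (Clopper-Pearson) and cover counting error only, since PCR reads are not independent molecules. With 2 samples a group, an exact permutation test of 1 gene could not pass the threshold. The alternatives were the experiment as a block, removal of a spline trend (5 degrees of freedom, fitted where mean log2 CPM was over 1) on length and GC (known for 99.9% of tested genes), DESeq2 1.42.0, limma 3.58.1 on log2(TPM + 1), RLE factors, no filter, filterByExpr, recomputed TPM and leaving out each library. The experiment numbers mark different embryos per the series' design text, and deviations from the group means of same-numbered libraries correlated with r = 0.423 over 10722 genes with mean log2 CPM over 3. The code was tested on simulated data.

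The members, the wider list and the markers were chosen with earlier results of these data known, and the wider genes named are those passing a fit without or with the block and the 3 most abundant of each role. A further gene of the wider list is not reported here. Dlk1 under length and GC removal, Dll3, Mfng, Dll4 and Hes5, and the promoters shown, were picked after their values were seen. Promoter windows were taken from RefSeq by symbol for 7 of the 10 members.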

Additional observations from a re-analysis of the deposited data

How the results depend on the processing

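With the experiment as a replicate block, the number of members called rose from 0 to 3 and that of the wider list from 0 to 3. It was 1 and 1 with block and length, and 1 and 2 with block, length and GC. Without the filter on low counts it was 0 and 1 (Psenen), by DESeq2 with the block 0 and 0, and leaving out each library gave 0 to 2 and 0. The 2 were Notch1 (adjusted p = 0.0262, edgeR) and Notch2 (adjusted p = 0.0305) without control of experiment 1, a fit in which the lone control is assumed to vary like the other group. Of all genes, 1 was called without the block, and 726 with the block, 431 with length, 422 with length and GC, 3 by DESeq2, 119 by DESeq2 with the block, 106 without the filter, 0 with filterByExpr, 0 by limma, and 2 to 205 with each library left out (205 without control of experiment 1, 24 without PEDF of experiment 2). The blocked log2 fold changes that passed were -0.28 for Notch1, -0.26 for Notch2 and -0.20 for Jag1, and for Notch2 also -0.19 with length and -0.17 with length and GC. Hes1 changed sign with length (-0.027) and with length and GC removed (-0.011). In DESeq2 with the block, 9 of the 10 members and 42 of the wider list had no adjusted p. These could not be called, so the 0 and 0 of that fit rest on the other genes.

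With each library left out, the log2 fold changes without the block ran from -0.41 (without control of experiment 1) to -0.14 (without control of experiment 2) for Notch1, -0.36 to -0.15 (the same libraries) for Notch2, -0.23 to -0.04 for Notch3, -0.75 to 0.20 for Notch4, -0.37 to -0.05 for Jag1, -0.16 to -0.08 for Jag2, -0.10 to 0.52 for Dll1, -0.040 to 0.10 for Hes1, -0.47 to -0.32 for Hey1 and -0.070 to 0.48 for Heyl. Of 130 member values under 13 alternatives, 115 kept direction with no change of call, 7 passed the threshold anew and 8 changed sign. The 115 include 9 from DESeq2 with the block that had no adjusted p, so only their direction could be compared. Mean TPM recomputed from counts was within 1 SD for 10 of 10 members. Where calls changed the cause was not tested. The blocked fit leaves few residual degrees of freedom from 4 libraries, and its spread is borrowed across genes. Under 10 CPM (Notch4, Jag2, Dll1, Hey1, Heyl), counts limit what could be detected.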
